A study of Mus musculus with 72 samples.

Results

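The lipid-associated macrophage genes described here are Trem2, Cd9, Gpnmb, Spp1, Itgax, Tyrobp and Cd68. They were chosen by name, with earlier results of these data known, and all 7 were found among the 55416 genes counted. RNA was sequenced from epididymal white adipose tissue (eWAT), liver and pituitary of 24 adult male mice of the sighted FVB strain, 72 libraries in all. FED offspring were born to dams fed ad libitum, and CR20 offspring to dams whose food was cut by 20% from embryonic day 15 until weaning at postnatal day 21. From 8 weeks of age the offspring ate a control diet with 10% fat (CTRL) or a high fat diet with 45% fat (HFD). This gave 4 groups of 6 mice, FED-CTRL, FED-HFD, CR20-CTRL and CR20-HFD, and each mouse gave all 3 tissues. The labels allow 10 or 16 weeks on the diet, and the study's sequencing section names 10 weeks. Which mice shared a dam is not given in the labels, so the tests below measure the spread between mice.

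Lipid-associated macrophages collect around dying adipocytes in the fat of obese animals, where they form crown-like structures, take up lipid and break it down in lysosomes. Their gene program is known for the surface receptor TREM2, which binds lipids and lipoproteins and signals through its membrane partner TYROBP to the kinase SYK. None of the 7 genes is made by these cells alone. Tyrobp and Cd68 are shared by macrophages of many tissues, Itgax by dendritic cells, and Cd9 and Spp1 by cells outside the immune system.

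All 7 genes lie on different stretches of the GRCm39 genome. Trem2 (ENSMUSG00000023992) lies at chr17:48653429-48661175 on the plus strand, Gpnmb (ENSMUSG00000029816) at chr6:49013426-49047863 on the plus strand, and Cd9 (ENSMUSG00000030342) at chr6:125437210-125471778 on the minus strand. Itgax (ENSMUSG00000030789) lies at chr7:127728668-127749829 and Tyrobp (ENSMUSG00000030579) at chr7:30113170-30117010, both on the plus strand. Spp1 (ENSMUSG00000029304) lies at chr5:104582165-104589235 on the plus strand and Cd68 (ENSMUSG00000018774) at chr11:69555037-69557067 on the minus strand. Cd9 overlaps the long non-coding genes Gm28809 and Gm26728 on the other strand and Spp1 overlaps Gm42793 on its own strand. Reads of these overlaps may be shared, so the values of Cd9 and Spp1 carry that limit.

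Promoter sequences are shown because several members moved together in eWAT. RefSeq (build GRCm38.p6) gave 7 promoters for 6 of the members and none for Tyrobp. Each promoter holds 250 bases before and 50 bases after a transcription start. The 4 promoters printed are those with the letters TGANTCA, the AP-1 motif, which stand in capitals. They are Trem2 at chr17:48346151-48346450 and Gpnmb at chr6:49036268-49036567, both on the plus strand, then Itgax at chr7:128129300-128129599 on the plus strand and Cd68 at chr11:69666121-69666420 on the minus strand.
Trem2: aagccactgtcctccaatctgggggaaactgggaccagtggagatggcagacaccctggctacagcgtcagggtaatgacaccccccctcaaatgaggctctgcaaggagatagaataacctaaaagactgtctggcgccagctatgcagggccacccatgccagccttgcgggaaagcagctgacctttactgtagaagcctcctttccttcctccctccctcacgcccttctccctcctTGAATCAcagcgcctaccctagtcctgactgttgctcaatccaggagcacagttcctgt
Gpnmb: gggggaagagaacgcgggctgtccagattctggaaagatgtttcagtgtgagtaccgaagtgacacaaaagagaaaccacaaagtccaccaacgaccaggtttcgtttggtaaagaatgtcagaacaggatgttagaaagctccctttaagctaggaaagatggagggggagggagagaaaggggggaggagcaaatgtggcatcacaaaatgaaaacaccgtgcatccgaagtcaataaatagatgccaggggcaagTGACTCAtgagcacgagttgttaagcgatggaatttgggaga
Itgax: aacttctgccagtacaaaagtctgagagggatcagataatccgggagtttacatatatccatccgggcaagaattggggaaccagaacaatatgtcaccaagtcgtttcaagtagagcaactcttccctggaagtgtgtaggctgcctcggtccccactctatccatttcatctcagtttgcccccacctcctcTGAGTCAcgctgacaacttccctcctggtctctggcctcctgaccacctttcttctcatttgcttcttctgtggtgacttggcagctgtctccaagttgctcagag
Cd68: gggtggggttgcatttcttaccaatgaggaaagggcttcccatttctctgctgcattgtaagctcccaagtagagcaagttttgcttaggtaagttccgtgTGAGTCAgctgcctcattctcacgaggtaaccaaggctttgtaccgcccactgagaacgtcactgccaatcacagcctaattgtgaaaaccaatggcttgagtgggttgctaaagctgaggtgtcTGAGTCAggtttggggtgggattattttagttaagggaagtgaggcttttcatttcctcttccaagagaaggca
Counted from the start base as 0, the first capital lies at -9 in Trem2, at 8 in Gpnmb, at -56 in Itgax, and at -149 and -24 in Cd68. TGANTCA was present in 7.81% of the 32851 mouse promoters of the same length, and it was put in capitals after the matches had been seen. A match is a description of letters and not a binding site.

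In all, 11 motifs were searched on both strands. PU.1, the lineage factor of macrophages, was searched as GAGGAAG, which was found in Spp1 and Trem2 and in 13.6% of all promoters. Its shorter relatives share letters with it. GGAAGT was found in Spp1, Itgax and Cd68 and in 23.8% of all promoters, and GGGAAG in Gpnmb, Cd9, Itgax and Cd68 and in 31.4%. For the MiT/TFE factors, which drive lysosome genes, TCACNTG was found in Gpnmb, where it overlaps the AP-1 letters, and in 16.6% of all promoters. The C/EBP letters TTGCNNAA were found in Spp1, Cd68 and Trem2 and in 10.8% of all promoters, and the nuclear receptor letters AGGTCA in Trem2 and in 16.3%. The NF-kB motif was found in Cd9 (1.63% of all promoters), and both the IRF motif (3.44%) and TATAAA (13.6%) in Spp1. The E-box CACGTG, held by 7.15% of all promoters, was in none of the 7 windows, which says only that these letters are not there.

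In eWAT, the lipid-associated macrophage genes had their highest median in FED-HFD. FED-HFD levels of Itgax, Cd9 and Spp1 overlapped those of CR20-CTRL. By the fit of group means, FED-HFD offspring held 2.37 to 9.71 times as much of the 6 called members as FED-CTRL offspring. FED-HFD mouse 23 was the highest for all 7 members. The median of the other FED-HFD mice was 1.49 (Cd9) to 3.04 times (Gpnmb) the FED-CTRL median. CR20 offspring on the same high fat diet did not differ detectably from the control groups. Of the 7 members, 6 were called higher in FED-HFD than in FED-CTRL, beside 4.18% of the 15964 genes tested, and 6 were called below FED-HFD in CR20-HFD, beside 4.78%. Both comparisons use the same 6 FED-HFD mice, so they are not independent. The members were chosen with earlier results of these data known, so these counts describe the list and do not test it. The median log2 fold change (log2FC) of the members was 2.11 in the first comparison and -2.63 in the second, against -0.00 and 0.02 over all genes tested.

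Levels of a gene are given in CPM, counts scaled to a common library size, as the lowest, median and highest of the 6 mice of a group. The edgeR quasi-likelihood test was fitted to the 24 libraries of a tissue and its p-values were adjusted by the Benjamini-Hochberg method over all genes tested. A gene was called at an adjusted p of at most 0.055 and an absolute log2FC of at least 1, the limits in the study's legend of its eWAT plots. Its methods name a log2FC of at least 0.58 instead, and other passages an adjusted p under 0.05. Total counts per eWAT library were 11589675 to 22364963, so that 3 counts equal 0.134 to 0.259 CPM. They were 9842813 to 19928212 in liver and 18299494 to 27601208 in the pituitary. The labelled tissues held their own markers: adipocyte markers summed to 19632 to 25102 CPM in FED-CTRL eWAT, hepatocyte markers to 69094.7 to 115015 CPM in liver, and hormone genes to 232493 to 409877 CPM in the pituitary. In bulk tissue, fewer cells of a type and less RNA per cell cannot be told apart.

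**Figure D1:**
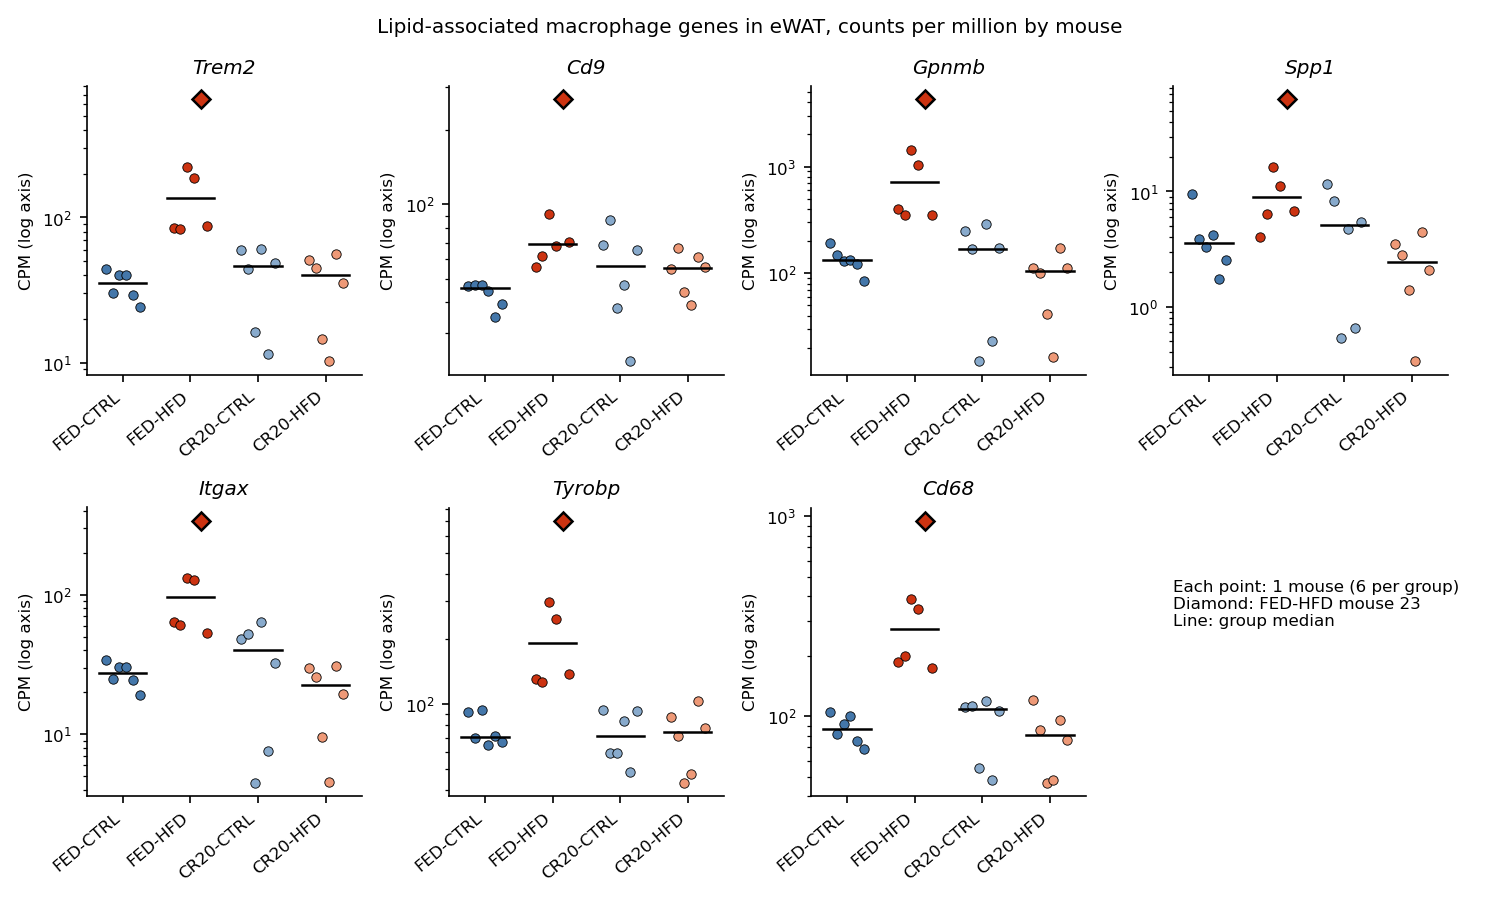
CPM of the 7 genes in eWAT of every mouse (log axis), by group, with a line at the median of 6 mice and a diamond for FED-HFD mouse 23. For Trem2, Gpnmb, Tyrobp and Cd68 every FED-HFD mouse lies above all mice of the other groups, and mouse 23 is the highest in all 7 panels.

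Among the receptors, Trem2 itself ranged over 24.2, 35.3 and 44.4 CPM in FED-CTRL, 83.1, 136 and 653 CPM in FED-HFD, 11.6, 46.4 and 61.0 CPM in CR20-CTRL, and 10.2, 40.1 and 56.4 CPM in CR20-HFD. The lowest FED-HFD mouse was above the highest mouse of each other group. Trem2 was 6.31-fold higher in FED-HFD than in FED-CTRL (log2FC 2.66, SE 0.52, adjusted p = 0.00345). It was 6.21-fold below FED-HFD in CR20-HFD (log2FC -2.63, SE 0.53, adjusted p = 0.00197).

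Tyrobp encodes the adaptor that carries the signal of TREM2 and of other receptors of myeloid and natural killer cells. Its level was 65.2, 70.9 and 93.9 CPM in FED-CTRL, 127, 192 and 705 CPM in FED-HFD, 48.5, 71.5 and 93.8 CPM in CR20-CTRL, and 43.3, 74.6 and 103 CPM in CR20-HFD. Again all FED-HFD mice were above all others, and the remaining 3 groups overlapped almost fully. The rise in FED-HFD over FED-CTRL was 3.58-fold (log2FC 1.84, SE 0.34, adjusted p = 0.00297), and CR20-HFD was 3.82-fold below FED-HFD (log2FC -1.93, SE 0.34, adjusted p = 0.000926).

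Itgax encodes CD11c, the alpha chain of an integrin whose beta chain comes from Itgb2. Itgax was at 19.1, 27.5 and 34.2 CPM in FED-CTRL, 52.9, 95.5 and 340.0 CPM in FED-HFD, 4.47, 40.2 and 63.4 CPM in CR20-CTRL, and 4.54, 22.6 and 30.9 CPM in CR20-HFD. FED-HFD did not overlap FED-CTRL or CR20-HFD but did overlap CR20-CTRL, the group with the wider spread of the control diet groups. Itgax was 4.77-fold higher in FED-HFD than in FED-CTRL (log2FC 2.25, SE 0.56, adjusted p = 0.0116) and 6.52-fold below FED-HFD in CR20-HFD (log2FC -2.71, SE 0.57, adjusted p = 0.00292).

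Gpnmb encodes a membrane glycoprotein found in lysosomes and at the surface of lipid-laden macrophages. It had the largest fold changes among the members, with 84.4, 133 and 193 CPM in FED-CTRL, 354, 724 and 4286 CPM in FED-HFD, 14.9, 169.7 and 289 CPM in CR20-CTRL, and 16.3, 106 and 174 CPM in CR20-HFD. No mouse of another group reached the lowest FED-HFD mouse. Gpnmb was 9.71-fold higher in FED-HFD than in FED-CTRL (log2FC 3.28, SE 0.71, adjusted p = 0.0057), and 14.2-fold below FED-HFD in CR20-HFD (log2FC -3.83, SE 0.73, adjusted p = 0.00144).

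Cd68 encodes a glycoprotein of macrophage lysosomes and endosomes. It showed 68.7, 86.6 and 105 CPM in FED-CTRL, 175, 272 and 953 CPM in FED-HFD, 47.9, 109 and 119.8 CPM in CR20-CTRL, and 46.5, 80.8 and 120.5 CPM in CR20-HFD. Every FED-HFD mouse was above every other mouse. Its fold change was 4.30 for FED-HFD over FED-CTRL (log2FC 2.11, SE 0.36, adjusted p = 0.00297), and CR20-HFD was 4.76-fold lower than FED-HFD (log2FC -2.25, SE 0.36, adjusted p = 0.000611).

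Cd9 encodes a tetraspanin, a small membrane protein that organizes its partners at the cell surface. Cd9 held 35.1, 45.6 and 47.0 CPM in FED-CTRL, 55.5, 69.0 and 267 CPM in FED-HFD, 23.1, 56.2 and 86.6 CPM in CR20-CTRL, and 38.9, 55.3 and 66.8 CPM in CR20-HFD. FED-HFD lay above FED-CTRL without overlap but overlapped both CR20 groups. Cd9 was 2.37-fold higher in FED-HFD than in FED-CTRL (log2FC 1.24, SE 0.33, adjusted p = 0.0168). The 1.92-fold lower value in CR20-HFD than in FED-HFD was within the p limit but under the size limit (log2FC -0.94, SE 0.32, adjusted p = 0.0527).

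Spp1 encodes osteopontin, a secreted ligand of CD44 and of integrins. It was a low gene in eWAT, with 1.74, 3.58 and 9.50 CPM in FED-CTRL, 4.05, 8.95 and 63.4 CPM in FED-HFD, 0.532, 5.07 and 11.6 CPM in CR20-CTRL, and 0.334, 2.44 and 4.48 CPM in CR20-HFD. All groups overlapped. The difference between FED-HFD and FED-CTRL was not called (log2FC 2.11, SE 0.70, adjusted p = 0.0563), and over the alternative settings its adjusted p was 0.0228 to 0.0971. Without mouse 23 its log2FC was 1.09 with an adjusted p of 0.378. Spp1 was called 7.49-fold lower in CR20-HFD against FED-HFD (log2FC -2.91, SE 0.74, adjusted p = 0.0104).

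Seen mouse by mouse, 6 of 7 members had no overlap between FED-HFD and FED-CTRL, beside 4.06% of all genes tested with FED-HFD above. Between CR20-HFD and FED-HFD they did not overlap for 5 of 7 members, beside 4.17% with CR20-HFD below. An exact permutation test of the mean log2 CPM of each member over the 924 ways of dividing 12 mice, two-sided, cannot give a p under 0.00216. That smallest p of 0.00216 was reached by 6 members for FED-HFD against FED-CTRL and by 5 members for CR20-HFD against FED-HFD. The exact permutation p of Spp1 was 0.0238 and 0.00433 in these comparisons, and that of Cd9 in the second was 0.0216.

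Animal numbers fell into ranges under 20, from 20 to 39, and from 40 upward, and what the ranges stand for is not stated. Within each range all 7 members had a higher mean log2 CPM in FED-HFD than in FED-CTRL. The median difference of the members was 1.53 with 4 against 3 mice in the lowest range, 3.49 with 1 against 1 in the middle range, and 1.29 with 1 against 2 in the highest. CR20-HFD was below FED-HFD for all 7 members in each range as well, with median differences of -1.39, -5.67 and -1.04. The middle range holds CR20-HFD mice 31 and 32, which had the 2 lowest levels of their group for all 7 members. It also holds FED-HFD mouse 23, described next.

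FED-HFD mouse 23 carried the highest level of all 7 members. Its level was 10.6 times the median of the other 5 FED-HFD mice for Gpnmb, 9.28 times for Spp1 and 7.49 times for Trem2. For the members with smaller differences the ratio was 5.33 for Itgax, 5.10 for Tyrobp, 4.76 for Cd68 and 3.94 for Cd9. The other 5 mice were also above the FED-CTRL median by their own median, 3.04-fold for Gpnmb, 2.47-fold for Trem2, 2.32-fold for Itgax, 2.31-fold for Cd68, 1.95-fold for Tyrobp, 1.91-fold for Spp1 and 1.49-fold for Cd9.

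Without mouse 23, 5 members were called in each of the 2 comparisons: Trem2, Gpnmb, Itgax, Tyrobp and Cd68, beside 1.77% of genes called higher in the first comparison and 2.39% called lower in the second. Their log2FC for FED-HFD against FED-CTRL became 1.93 for Trem2, 2.41 for Gpnmb, 1.68 for Itgax, 1.29 for Tyrobp and 1.57 for Cd68. For CR20-HFD against FED-HFD it became -1.91 for Trem2, -2.95 for Gpnmb, -2.13 for Itgax, -1.39 for Tyrobp and -1.71 for Cd68. The Cd9 call was lost, at 0.68 with an adjusted p of 0.0758. Against CR20-HFD the Spp1 call was lost, at -1.89 with an adjusted p of 0.0688.

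Markers of other cells moved in the same mouse. The summed level of 12 pan-macrophage markers was 8928 CPM in mouse 23, 2061 to 3681 CPM in the other FED-HFD mice and 1503 to 2202 CPM in FED-CTRL. The 8 adipocyte markers summed to 5570.1 CPM in mouse 23, against a highest FED-HFD value of 20923 CPM. Over the groups, adipocyte markers summed to 19632 to 25102 CPM in FED-CTRL, 9820.1 to 28383 CPM in CR20-CTRL and 22397 to 25432 CPM in CR20-HFD. Their part in the member results was not tested.

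**Figure D2:**
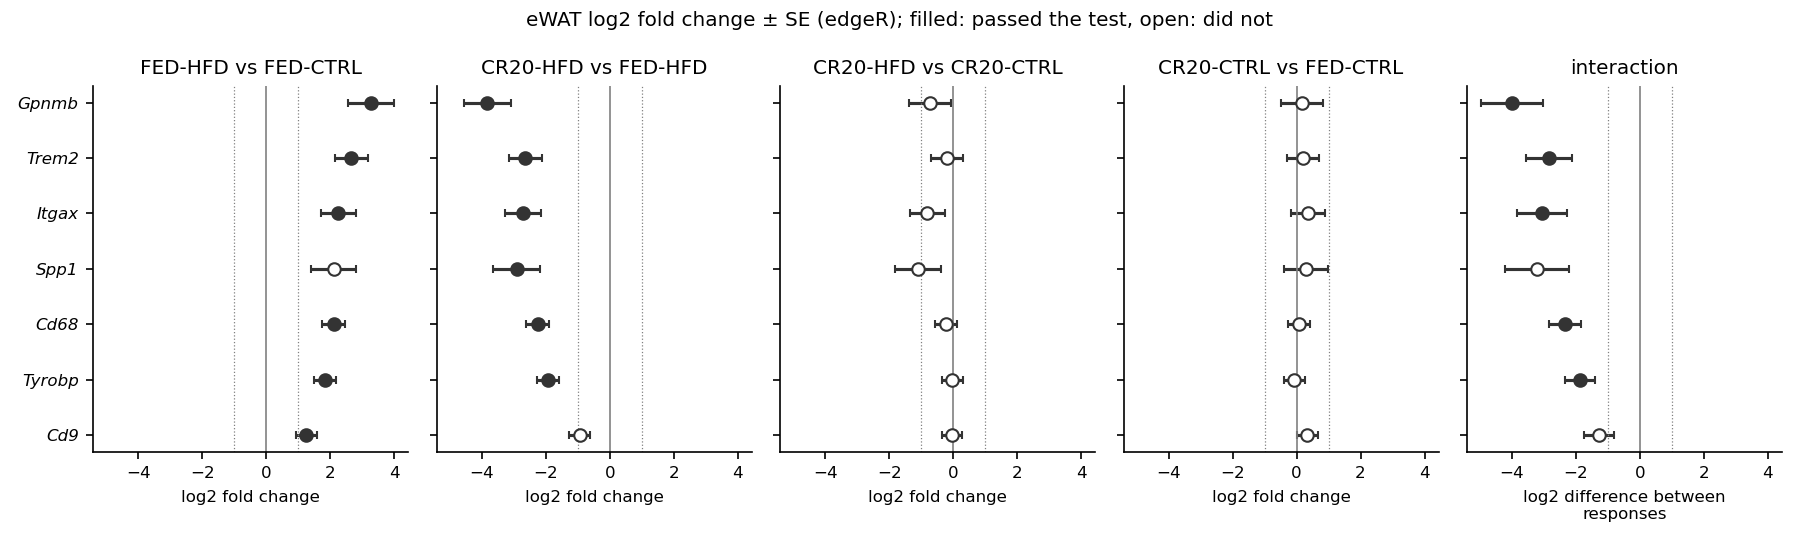
Log2FC of the 7 genes in eWAT with its standard error in 5 comparisons of group means, filled where the gene was called and with dotted lines at the size limit of 1. Values lie from 1.24 to 3.28 for FED-HFD against FED-CTRL and from -3.83 to -0.94 for CR20-HFD against FED-HFD, and none is called in the 2 panels of CR20-HFD against CR20-CTRL and of CR20-CTRL against FED-CTRL.

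Whether the response to the high fat diet differed between FED and CR20 offspring was asked with the interaction term, the log2FC of HFD over CTRL in CR20 offspring minus that in FED offspring. It was negative for all 7 members and was called for 5 of them, beside 2.23% of all genes called lower. The values were -4.00 for Gpnmb (SE 0.96, adjusted p = 0.0361), -3.06 for Itgax (SE 0.78, adjusted p = 0.0422) and -2.84 for Trem2 (SE 0.72, adjusted p = 0.0421). The adaptor Tyrobp followed at -1.86 (SE 0.47, adjusted p = 0.0422) and Cd68 at -2.33 (SE 0.50, adjusted p = 0.0322). Spp1 at -3.21 (adjusted p = 0.0879) and Cd9 at -1.28 (adjusted p = 0.140) were not called.

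These interaction calls lay near the adjusted p limit, and leaving out single mice moved them across it. No member was called without any 1 of FED-CTRL mice 15, 16, 41 and 42, CR20-CTRL mice 5, 47 and 49, or CR20-HFD mice 31 and 32, and in these 9 fits 0 genes at all were called. A single member was called without CR20-HFD mouse 7 or 46, and 2 members without FED-CTRL mouse 14 or 24, CR20-CTRL mouse 4, or FED-HFD mouse 12, 13 or 23. The shares of all genes called in the fits that kept calls are not given. Over all 24 leave-outs the interaction ran from -4.28 to -3.11 for Gpnmb, -3.28 to -2.47 for Itgax and -3.02 to -2.10 for Trem2, with adjusted p-values from edgeR of at most 0.0744, 0.0832 and 0.0832. It ran from -2.01 to -1.30 for Tyrobp and -2.49 to -1.78 for Cd68, with adjusted p-values of at most 0.0832 and 0.0720. With limma voom and quality weights, the test of the study, 1 member (Cd68) was called, beside 101 of 15964 genes called lower.

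Within CR20 offspring the members showed no detectable response to the high fat diet. The log2FC of CR20-HFD against CR20-CTRL was -1.10 to -0.02, no member was called by edgeR (0.0% of genes), and the smallest adjusted p of a member was 0.910. Nor did the maternal diet alone give a call: CR20-CTRL against FED-CTRL ranged from -0.07 to 0.35, with a smallest adjusted p of 0.949 and 0.0% of genes called. CR20-HFD against FED-CTRL, which differ in both diets, ranged from -0.80 to 0.31, with a smallest adjusted p of 0.910 and again 0.0% of genes called. No member had an unadjusted p under 0.05 in these 3 comparisons, in which 962, 1180 and 1119 genes did, and DESeq2 called no member either. Over all genes DESeq2 called 0, 147 and 0 in these comparisons and limma voom 0, 0 and 21, so the shares of 0.0% are those of edgeR. All groups overlapped for all members. Standard errors of the log2FC were 0.32 to 0.72 here, which limits the size of change that could be seen.

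The members were next set against the general level of macrophages, by taking from a member's log2 CPM the mean log2 CPM of the 12 pan-macrophage markers in the same mouse. For Trem2, Gpnmb, Itgax and Cd68, 4 of the 7 members, all FED-HFD mice stayed above all FED-CTRL mice on this scale, beside 0.564% of all genes tested. The mean difference was 2.05 for Gpnmb, 1.62 for Trem2, 1.33 for Itgax, 1.23 for Cd68, 1.00 for Spp1, 0.94 for Tyrobp and 0.39 for Cd9. Between FED-HFD and CR20-HFD 3 members did not overlap, Trem2, Gpnmb and Itgax, with mean differences of 1.73, 2.82 and 1.94, beside 0.664% of genes with FED-HFD above. Cd9 differed by 0.01 there. The Trem2 gap was narrow, from -0.011 in the highest CR20-HFD mouse to -0.004 in the lowest FED-HFD mouse. FED-HFD overlapped CR20-CTRL for every member on this scale, where CR20-CTRL reached 0.22 for Trem2 and 2.30 for Gpnmb. The subtracted mean was itself higher in FED-HFD: the Trem2 difference from FED-CTRL was 2.23 before and 1.62 after it was taken away. This lowers every gene of FED-HFD on this scale, so both shares of all genes are lowered as well. The differences on this scale were computed as a description, with no test.

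**Figure D3:**
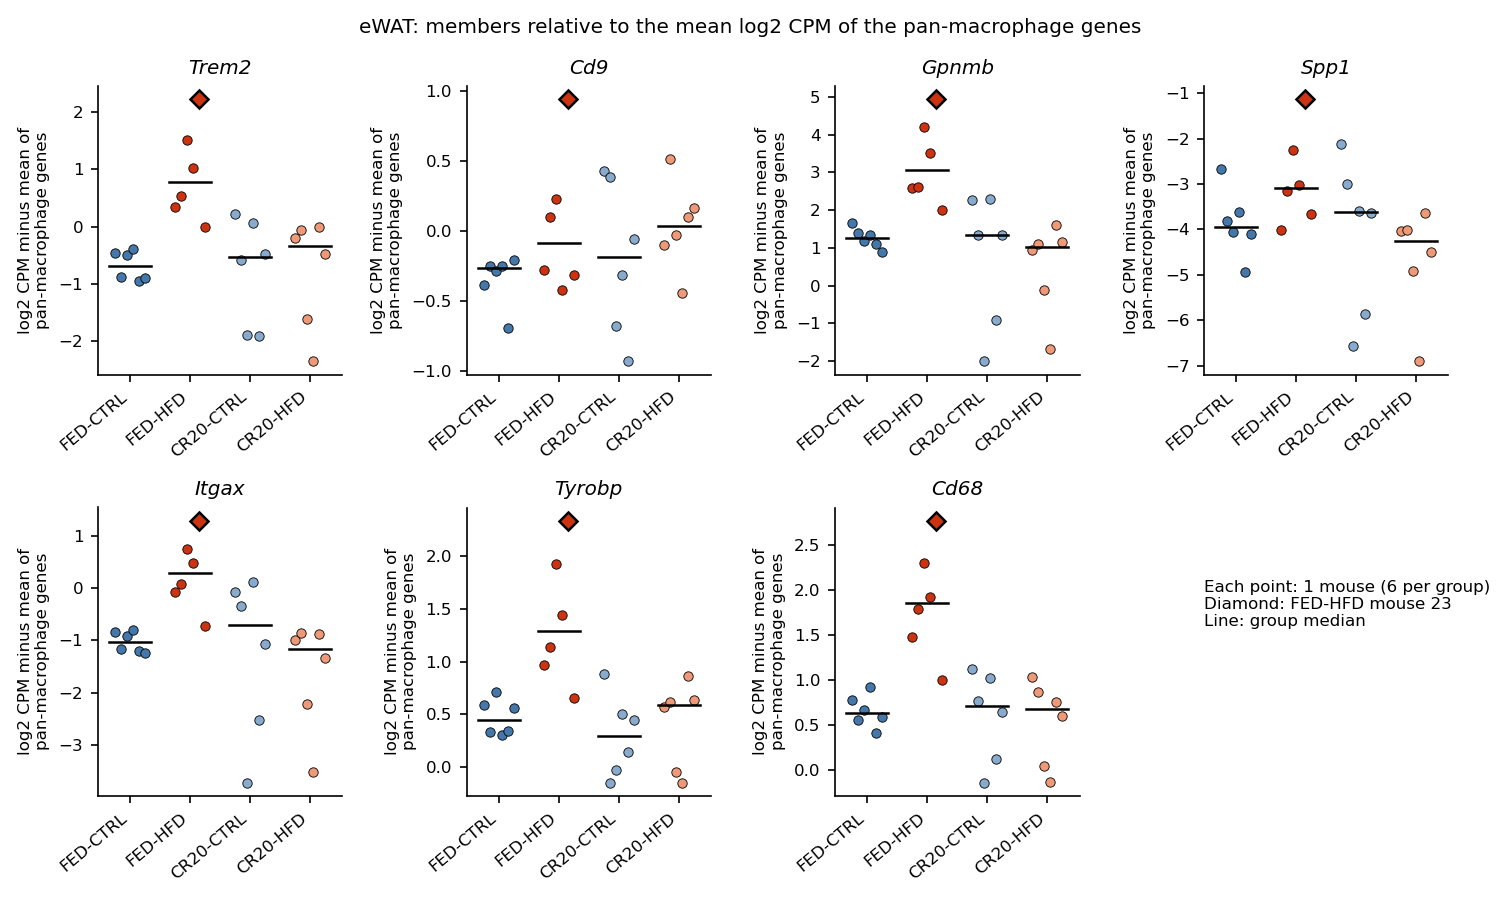
Log2 CPM of each member minus the mean log2 CPM of 12 pan-macrophage markers in the same eWAT library, by group, one point per mouse. Trem2 lies between -0.94 and -0.39 in FED-CTRL and between -0.00 and 2.23 in FED-HFD. FED-HFD and FED-CTRL overlap for Cd9, Spp1 and Tyrobp, and FED-HFD overlaps CR20-CTRL for every member.

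Other genes of the program were read from a list of 22 lipid-associated macrophage genes. In FED-HFD against FED-CTRL 11 of the 22 were called higher, beside 4.18% of all genes tested, and none lower, with a median log2FC of 0.89. In CR20-HFD against FED-HFD 10 were called lower, beside 4.78% of all genes, with a median of -0.92. The same shares belong beside the counts of the other gene lists below. Among the called genes, Lipa, the lysosomal acid lipase, changed by 2.14 and -2.41 in these comparisons. Lgals3, the lectin galectin-3, changed by 2.45 and -2.37, and the protease gene Ctss by 2.01 and -2.25. Abcg1, a cholesterol exporter, rose by 1.10 (SE 0.16, adjusted p = 0.00212) and stood at -0.96, under the size limit, in the second comparison. The interaction was called lower for 9 genes of the list, beside 2.23% of all genes. Without mouse 23 the counts were 9, 8 and 4, beside 1.77% of all genes for the first and 2.39% for the second. The share of all genes is not given for the interaction in that fit, so its count cannot be set against it.

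The list for signalling below TREM2 and TYROBP holds 16 genes, of which 8 were called higher in FED-HFD than in FED-CTRL and 11 below FED-HFD in CR20-HFD, with median log2FC of 0.96 and -1.19. Syk, the kinase that docks on the adaptor, changed by 1.67 and -1.70, and Btk, a kinase downstream of it, by 1.52 and -1.76. Inpp5d, the phosphatase SHIP1 that restrains this pathway, changed by 1.14 and -1.33. The small GTPase Rac2 changed by 1.39 and -1.52. Without mouse 23 the counts were 2 and 5, beside 1.77% and 2.39% of all genes.

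Other receptors coupled to TYROBP were mostly low, and 4 of 6 listed were tested. Siglec15 was called higher in FED-HFD than in FED-CTRL at a log2FC of 3.76 (SE 0.97, adjusted p = 0.0151), and lower in CR20-HFD at -3.40 together with Siglech at -1.30. Without mouse 23 the counts were 1 and 0. Of 10 receptors and partners of the members, 2 were called higher in FED-HFD: Cd44, which binds the product of Spp1, at 1.72, and Itgb2, the partner chain of Itgax, at 2.04. In CR20-HFD against FED-HFD, Cd44 at -1.83, Itgb2 at -2.38 and the integrin chain Itga4 at -1.22 were called lower. The partners of CD9 in the list, Cd81, Ptgfrn and Igsf8, were not called. Of the 4 MiT/TFE factors, Mitf and Tfec were called higher in FED-HFD than in FED-CTRL by edgeR, neither without mouse 23. Mitf at 1.05 (SE 0.26, adjusted p = 0.0118) lay near the size limit, and Tfec at 1.29 (SE 0.43, adjusted p = 0.0542) near the p limit. None was called in CR20-HFD against FED-HFD by edgeR, where all 4 had an unadjusted p under 0.05, or by limma voom.

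Markers of other cells gave this picture beside the members. Of 12 pan-macrophage markers, 3 were called higher in FED-HFD than in FED-CTRL, among them Adgre1 at 1.79 and Lyz2 at 1.40. In CR20-HFD against FED-HFD 4 were called lower, among them Adgre1 at -2.08, Lyz2 at -1.66 and Fcgr1 at -1.16. The medians of this list were 0.54 and -0.78, smaller than those of the members. None of 8 resident macrophage markers was called in either comparison by edgeR, though 4 and 3 had an unadjusted p under 0.05, nor by limma voom. Their summed level was 601 to 741 CPM in FED-CTRL, 495 to 769 CPM in FED-HFD, 511 to 835 CPM in CR20-CTRL and 474 to 668 CPM in CR20-HFD.

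Dendritic cells share Itgax with macrophages. Of 7 dendritic cell markers none was called by edgeR or limma voom in FED-HFD against FED-CTRL, where 2 had an unadjusted p under 0.05, and Flt3 at -1.496 and Ccr7 at -1.19 were called below FED-HFD in CR20-HFD. Their summed level was 40.2 to 50.1 CPM in FED-CTRL and 40.5 to 47.4 CPM in FED-HFD. Of 4 monocyte markers, Ly6c2 was called higher in FED-HFD at 1.05, and Ccr2 at -1.30 and Ly6c2 at -1.08 were called lower in CR20-HFD. These genes summed to 50.1 to 62.9 CPM in FED-CTRL and 55.7 to 113 CPM in FED-HFD. Neutrophil markers summed to at most 9.36 CPM with Ly6g at 0, and no natural killer cell, platelet, mesothelium or cholangiocyte marker was called in either comparison by edgeR or limma voom, where at most 1 of a list had an unadjusted p under 0.05. The adipocyte genes Cfd at 1.49 and Retn at 1.02 were called higher in CR20-HFD than in FED-HFD. The part of any of these cells in the member results was not tested.

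**Figure D4:**
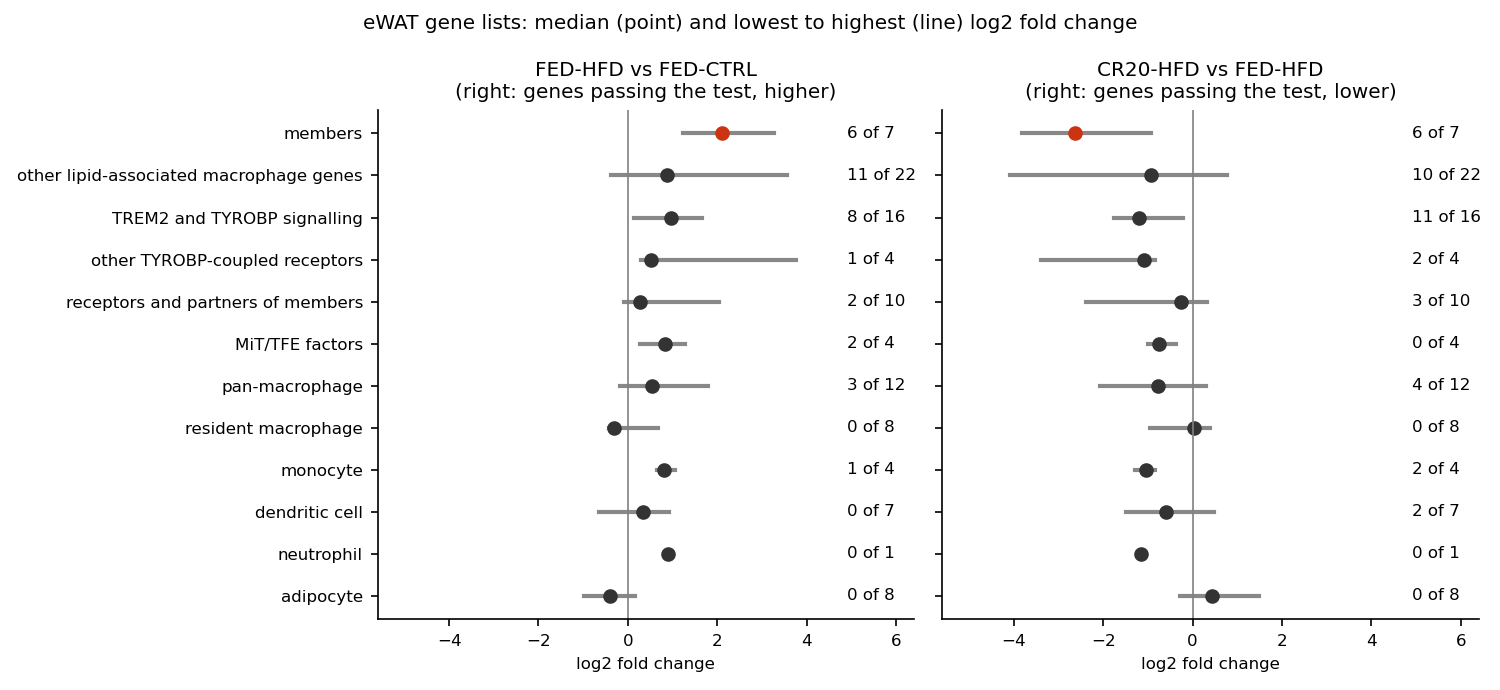
Median (point) and lowest to highest (line) log2FC of the tested genes of 12 gene lists in eWAT for 2 comparisons, with the count of called genes at the right and the 7 members in red. The members have medians of 2.11 and -2.63, the signalling list 0.96 and -1.19, and the resident macrophage list -0.31 and 0.04.

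Libraries with transcripts of neighbouring organs were looked at as well, a setting added after seeing the data. The liver genes Apoa1, Ttr and Serpina1c summed to 179 CPM in FED-HFD mouse 10, 33.5 CPM in FED-HFD mouse 13 and 113 CPM in CR20-CTRL mouse 5. The epididymis genes summed to 132 CPM in CR20-CTRL mouse 4, 61.9 CPM in mouse 5 and 26.4 CPM in CR20-HFD mouse 6. When these 5 mice were left out, all 7 members were called both higher in FED-HFD than in FED-CTRL and below FED-HFD in CR20-HFD. The share of all genes called in both comparisons is not given for this setting, so the count cannot be set against it. The interaction was then called for 0 members and for 0 of the 16045 genes tested, and the median log2FC of the members was -2.84. In the same setting edgeR called the resident macrophage markers Mrc1 at -1.14 and Folr2 at -1.03 and the MiT/TFE factor Mitf at -1.25 below FED-HFD in CR20-HFD.

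The members followed one another over the 24 eWAT libraries. Pearson's r of a member's log2 CPM with the mean of the other 6 was 0.986 for Trem2, 0.981 for Gpnmb, 0.970 for Itgax, 0.964 for Cd68, 0.932 for Spp1, 0.922 for Tyrobp and 0.849 for Cd9. Without mouse 23 it was 0.765 for Cd9 and 0.881 for Tyrobp. Of 15957 other genes, those most like the mean of the 7 members were Mmp12, a macrophage protease (r = 0.989), Atp6v0d2, a subunit of the proton pump of lysosomes (0.988), Cd84 (0.985), Lat2 (0.982) and Arhgap25 (0.978). After the mean of each group was taken away, the most alike were Mmp12 (0.981), Cd84 (0.977), Atp6v0d2 (0.976), Lgals3 (0.972) and Lat2 (0.968). Without mouse 23, Atp6v0d2 (0.988), Mmp12 (0.983), Cd84 (0.977), Lat2 (0.972) and Il7r (0.968) led. These are descriptions over libraries that share groups, mice and composition.

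To compare levels between members, counts were put per exon length as TPM, which scales the counts by gene length and library size. In FED-CTRL eWAT the medians of the 6 mice were 450.5 for Tyrobp, 278 for Cd68, 93.5 for Cd9, 87.8 for Gpnmb, 31.4 for Trem2, 24.9 for Itgax and 5.55 for Spp1. Cd9 (69.1 to 99.0 TPM) overlapped Gpnmb (55.2 to 124 TPM), and Trem2 (21.2 to 38.3 TPM) overlapped Itgax (17.0 to 30.1 TPM). In FED-HFD Gpnmb stood at 514 TPM, after Tyrobp at 1306 TPM and Cd68 at 936 TPM and before Cd9 at 148 TPM. Trem2 was at 128 TPM, Itgax at 89.9 TPM and Spp1 at 14.5 TPM there. In CR20-HFD the order was that of FED-CTRL, with 107 TPM for Cd9 and 66.6 TPM for Gpnmb.

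Liver macrophages, the Kupffer cells, are resident cells, and the liver held few reads of Trem2 and Gpnmb. Trem2 had 0 to 14 counts and Gpnmb 0 to 20 counts per liver library, and both were below the filter on low counts. The other 5 members were tested in 13787 genes, and none was called in any comparison by edgeR or DESeq2. Genes called by edgeR numbered 0.0943% for FED-HFD against FED-CTRL, 0.377% for CR20-HFD against CR20-CTRL and 0.0% for CR20-HFD against FED-HFD, CR20-CTRL against FED-CTRL and the interaction. DESeq2 called 34, 86, 1, 0 and 0 genes in these comparisons. All groups overlapped for these members.

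Cd9 was at 10.5, 12.0 and 16.2 CPM in FED-CTRL liver, 5.66, 8.59 and 13.6 CPM in FED-HFD, 10.2, 13.4 and 27.3 CPM in CR20-CTRL, and 6.43, 8.24 and 12.5 CPM in CR20-HFD. The medians of both HFD groups were below those of both CTRL groups. Its log2FC was -0.51 for FED-HFD against FED-CTRL (unadjusted p 0.0324, adjusted p = 0.673) and -0.83 for CR20-HFD against CR20-CTRL (SE 0.22, unadjusted p 0.0011, adjusted p = 0.111). Over the alternatives the adjusted p of the latter was 0.0313 to 0.241, with a log2FC of -0.84 to -0.40, which is under the size limit. Itgax at 0.74 (adjusted p = 0.450) and Cd68 at 0.58 (adjusted p = 0.506) also had an unadjusted p under 0.05 in CR20-HFD against CR20-CTRL, and no other member did in any liver comparison. Tyrobp in liver ranged over 12.7 to 62.7 CPM and Spp1 over 18.3 to 38.4 CPM in all 4 groups.

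In the pituitary, 6 members were tested, Gpnmb being below the filter at 0 to 11 counts, and none was called by edgeR or DESeq2 in any comparison. At an adjusted p under 0.05 edgeR called 0.0% of genes in each, whereas DESeq2 called 350 genes in CR20-CTRL against FED-CTRL, 19 in FED-HFD against FED-CTRL and at most 2 in the others, and limma voom 284 in CR20-CTRL against FED-CTRL and 0 elsewhere. Tyrobp was at 9.17, 10.4 and 12.9 CPM in FED-CTRL, 11.6, 13.4 and 16.4 CPM in FED-HFD, 8.90, 9.22 and 12.9 CPM in CR20-CTRL, and 10.5, 11.3 and 15.2 CPM in CR20-HFD. FED-HFD and FED-CTRL overlapped. Its log2FC of 0.38 between these groups had an unadjusted p of 0.00291 and an adjusted p of 0.260. Trem2 in CR20-HFD against FED-HFD, at -0.34, and Itgax in CR20-HFD against CR20-CTRL, at 0.50, had unadjusted p-values of 0.0491 and 0.0311 from the same edgeR fit. Spp1, 46.3 to 123 CPM, and Cd9, 28.8 to 54.8 CPM, were the members with the most reads in this tissue.

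**Figure D5:**
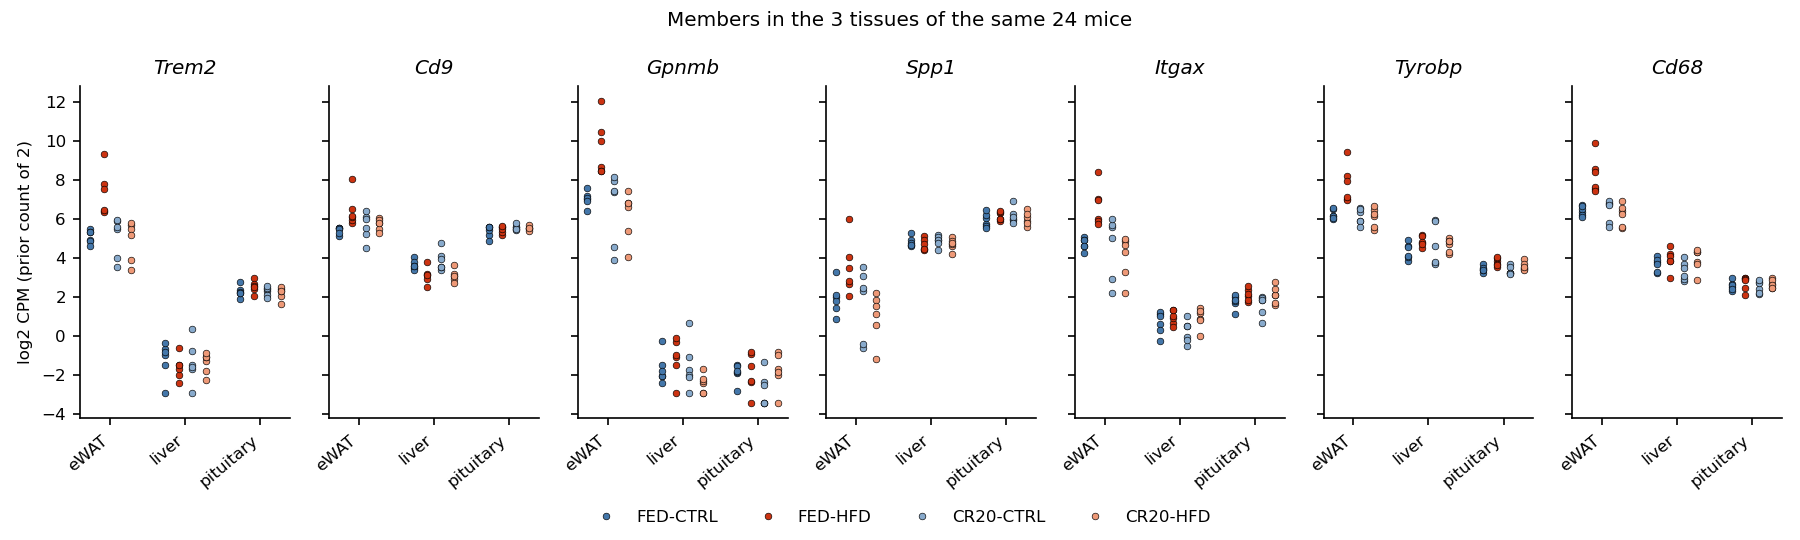
Log2 CPM of the 7 genes in eWAT, liver and pituitary of every mouse, coloured by group. The FED-HFD mice stand above FED-CTRL in eWAT for 6 of the 7 genes, all but Spp1, while the groups overlap in liver and pituitary, where Gpnmb is at no more than 20 counts in a library.

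Over the tissues of the 6 FED-CTRL mice, most members were eWAT genes, while Spp1 was not. Trem2, Itgax, Tyrobp, Cd68 and Gpnmb were highest in eWAT. Against liver, their log2FC was 5.75 for Trem2, 3.34 for Itgax, 1.96 for Cd68 and 1.08 for Tyrobp, and against the pituitary it was 2.68, 2.85, 3.71 and 2.68. For Gpnmb the log2FC of 8.44 and 9.29 rest on 1 to 12 counts per liver library and 1 to 6 counts per pituitary library, so their sizes are uncertain. Spp1 was lower in eWAT, by a log2FC of -3.55 against liver and -4.08 against the pituitary.

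Counted together, 5 members were called higher and 1 lower in eWAT than in liver, beside 29.0% and 19.7% of the 17255 genes tested, and 5 higher and 1 lower than in the pituitary, beside 26.6% and 27.6%. Cd9 missed the size limit against liver (log2FC 1.00, just under 1 before rounding) and did not differ detectably from the pituitary (-0.13, adjusted p = 0.376). With the mouse as a block, which pairs the tissues of an animal, Cd9 was at 1.02 and was called, so that 7 members were called between eWAT and liver. In liver against pituitary, Tyrobp at 1.60 and Cd68 at 1.75 were higher and Trem2 at -3.07 and Cd9 at -1.13 lower, beside 27.7% and 33.8% of genes. Spp1 at -0.53, Itgax at -0.49 and Gpnmb at 0.86 were not called. RNA of the liver was extracted by another method than that of eWAT and pituitary, so tissue and extraction cannot be told apart in comparisons with liver.

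On the TPM scale, FED-CTRL liver was led by Tyrobp at 103.6, Cd68 at 35.1, Spp1 at 33.5 and Cd9 at 20.3, with Itgax at 1.13, Trem2 at 0.293 and Gpnmb at 0.0676. The pituitary was led by Cd9 at 41.5, Spp1 at 40.6 and Tyrobp at 31.6, with Cd68 at 8.55, Trem2 at 2.02, Itgax at 1.34 and Gpnmb at 0.0643.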

How the data were processed

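The authors trimmed the reads with Trimmomatic (quality 20, minimum length 36), aligned them with STAR to GRCm39 (Ensembl 104), counted them per gene with featureCounts of Subread, and deposited raw counts, not normalized. Tool versions and the strand setting are not given in the sources used here. The kit is given as both a total RNA and an mRNA stranded kit. Names, positions and exon lengths were taken from GENCODE M39, which matched 54749 identifiers and left 667 unmatched.

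The 24 libraries of a tissue were fitted with edgeR 4.0.16 in R 4.3.3 with a mean per group (filterByExpr, TMM, glmQLFit and glmQLFTest). Total counts per library were 9842813 to 27601208, and floors in CPM cover counting error only. Pituitary calls used an adjusted p under 0.05. SE is the absolute log2FC divided by the square root of F. CPM used TMM-scaled library sizes, and log2 CPM a prior count of 2. FED-CTRL tissues were compared in 18 libraries. The 3 tissues of a mouse carry the same animal number in the labels, which is what the replicate block rests on. Alternatives were limma 3.58.1 voom with quality weights, the study's test, DESeq2 1.42.0, its size factors in edgeR, no filter, an absolute log2FC of at least 0.58, the animal-number range as a covariate, each eWAT mouse left out, a prior count of 0.5 for the permutation test, and TPM by the longest transcript.

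Members and gene lists were chosen with earlier results of these data known. Genes named are the members, up to 4 genes per pathway list and pan-macrophage and dendritic list with the smallest p in FED-HFD against FED-CTRL, and the 5 most alike. Cd81, Ptgfrn, Mrc1, Folr2, the monocyte, adipocyte and liver genes, Cyp2e1 and the single mice were named after their values were seen. The fits were tested on simulated data. Values of 1 listed marker are not reported here.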

Additional observations from a re-analysis of the deposited data

Results flagged for a closer look

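In eWAT, Cd9 of FED-HFD mouse 23 stood apart from its group by Dixon's criterion, with a gap of 0.681 of the group's range: 267 CPM against 91.6 CPM in the next mouse. It was 1 of 72 groups examined, and chance alone gives about 1 in 20, or 3.6.

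In eWAT the interaction term of CR20 and FED offspring was called for 5 members, beside 2.23% of all genes called lower. On the log2 scale it was -4.00 for Gpnmb, -3.06 for Itgax, -2.84 for Trem2, -2.33 for Cd68 and -1.86 for Tyrobp. The lowest adjusted p of these members was 0.0322 for Cd68 by edgeR. Over the alternatives other than leaving out single mice, the highest was 0.107 for Trem2, 0.201 for Gpnmb, 0.188 for Itgax, 0.0900 for Tyrobp and 0.0880 for Cd68. With single mice left out 0 to 6 members were called, and in 9 of the 24 leave-outs 0 were. With limma voom and quality weights only Cd68 was called, beside 101 of 15964 genes called lower.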

How the results depend on the processing

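Members called in FED-HFD against FED-CTRL and in CR20-HFD against FED-HFD numbered 6 to 7 under all alternatives other than leaving out single mice, though not always the same members: in the first comparison Cd9, at 0.76, was not called with limma voom, and Spp1 was called under 4 of 6 alternatives. They numbered 5 to 7 when each of the 24 eWAT mice was left out in turn. The interaction, called for 5 members, was called for 1 with limma voom and quality weights, for 0 without the 5 libraries holding liver or epididymis transcripts, for 6 with DESeq2, and for 0 to 6 with single mice left out. Of all 15964 genes tested, edgeR called it lower for 356, limma voom for 101 and DESeq2 for 641, so the methods also differed in calls over all genes. The cause of these changes was not tested, though leaving out libraries also lowers the number of samples. Between tissues, the replicate block (the mouse) gave 1.02 for Cd9 in eWAT against liver and 7 members called in place of 6, and it changed no other call.

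Directions turned only for members that were not called. For CR20-HFD against CR20-CTRL, voom with quality weights gave 0.15 for Trem2, 0.24 for Cd9, 0.26 for Gpnmb, 0.011 for Itgax and 0.067 for Tyrobp, and for CR20-CTRL against FED-CTRL -0.13 for Trem2, -0.81 for Gpnmb, -0.52 for Spp1, -0.53 for Itgax and -0.074 for Cd68. Without the 5 libraries, Cd9 was 0.30 in the first of these comparisons, and in the second Trem2 was -0.031, Cd9 -0.0056, Gpnmb -0.13, Spp1 -0.58, Itgax -0.024 and Cd68 -0.090, with Trem2 at -0.11 in CR20-HFD against FED-CTRL. With single mice left out, CR20-HFD against CR20-CTRL ran from -0.37 to 0.013 for Trem2, -0.18 to 0.15 for Cd9 and -0.16 to 0.088 for Tyrobp. CR20-CTRL against FED-CTRL ran from -0.12 to 0.40 for Gpnmb, -0.12 to 0.72 for Spp1, -0.16 to 0.012 for Tyrobp and -0.0084 to 0.20 for Cd68. CR20-HFD against FED-CTRL ran from -0.16 to 0.22 for Trem2 and -0.23 to 0.016 for Tyrobp. By the longest transcript, median TPM in FED-CTRL eWAT moved to 23.6 for Trem2, 112 for Cd9, 368 for Tyrobp and 209.8 for Cd68. Spp1 in eWAT and Trem2 and Gpnmb in liver are limited by depth.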

Other observations

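In eWAT, CR20-HFD mice 31 and 32 and CR20-CTRL mice 33 and 48 held the 2 lowest levels of their group for all 7 members. For 6 members, all but Cd9, the 4 mice were below the other 20 mice of the 4 groups. Trem2 was 10.2 to 16.2 CPM in the 4 mice and at least 24.2 CPM in the others, Gpnmb 14.9 to 41.4 CPM and at least 84.4 CPM, and Itgax 4.47 to 9.50 CPM and at least 19.1 CPM. Cd68 was 46.5 to 54.9 CPM and at least 68.7 CPM, Spp1 0.334 to 1.38 CPM and at least 1.74 CPM, and Tyrobp 43.3 to 59.3 CPM and at least 59.6 CPM. Cd9 was 23.1 to 44.1 CPM in these mice and at least 35.1 CPM in the others.

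The same 4 mice had the highest eWAT levels of Cyp2e1, a cytochrome of fatty acid and ethanol oxidation, at 541, 960.0, 901 and 762 CPM in mice 31, 32, 33 and 48, against 1.01 to 239 CPM in the other 20. Both the mice and this gene were chosen after their values were seen, and no test was made.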
